A study of Mus musculus with 35 samples.

Results

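Mss51 is a single gene of the 19938 measured on these arrays. It was chosen by its measured log2 change after ActRIIB-Fc against control, the largest fall of any gene, so its dose values are given as a description and were not tested. Its row was found through the array annotation, which pairs 1 row of the table with Mss51, and that row matched the mouse gene Mss51 (older symbol Zmynd17) by gene number. The values are log2 expression values of quadriceps muscle from female mice aged 2 months, 1 array per mouse, on 35 arrays. ActRIIB-Fc is a soluble decoy made of the ligand-binding part of the activin type IIB receptor and an antibody Fc part, and it binds myostatin, activins and related ligands. The 4 classes were control mice, mstn-null mice, for which the labels name no treatment, mice given 1 dose of ActRIIB-Fc and mice given 4 doses. A first experiment had 3 mice in each class, and an independent second experiment had 5 mice in each class but 8 mstn-null mice. The strain, the null allele, the vehicle, the amount and spacing of the doses and the time from the last dose to dissection are not given in the sources used here, so the number of doses and the length of treatment cannot be told apart.

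Mss51 encodes a protein with a MYND zinc finger that is found mainly in skeletal muscle, above all in fast glycolytic fibres, and that localises to mitochondria. In yeast, the protein of the same name is needed to make the mitochondrially encoded subunit Cox1 of complex IV, the cytochrome c oxidase. Myostatin and activins bind type II receptors such as ActRIIB, which act with a type I receptor to phosphorylate Smad2 and Smad3, and these enter the nucleus with Smad4 and bind DNA.

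The gene lies on chromosome 14 of the mouse assembly GRCm38.p6, from 20482857 to 20496901, between Anxa7 and Ppp3cb. The sequence around its start is shown because DNA-bound Smads are the last step of the pathway that the decoy blocks. It covers 250 bases before to 50 after the RefSeq start, chr14:20496852-20497151, minus strand of GRCm38.p6, from RefSeq, and the capitals mark the palindromic Smad element GTCTAGAC.

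Mss51 promoter: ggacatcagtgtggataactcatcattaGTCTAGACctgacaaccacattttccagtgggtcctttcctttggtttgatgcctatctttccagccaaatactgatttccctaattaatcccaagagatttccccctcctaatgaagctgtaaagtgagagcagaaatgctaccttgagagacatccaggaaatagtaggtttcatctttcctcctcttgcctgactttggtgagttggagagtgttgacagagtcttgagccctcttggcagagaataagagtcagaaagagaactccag

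The element stands once in this window, with its first base 222 bases before the start. It occurs in 70 of 32851 RefSeq mouse promoters of the same length, or 0.213% of them. The shorter Smad word GTCTG, searched on both strands, was not found in the Mss51 window and is in 49.6% of all promoters. The E-box CANNTG, the word of the myogenic factors, was not found there either and is in 72.3%. None of these words overlaps another in this window. The element was looked for with the Mss51 sequence in view, and a match of letters is not a binding site. Of 44 other measured genes with the element in a promoter, none was lower after either number of doses at adjusted p under 0.05, against 0.551% of all 15614 measured genes with a listed promoter after 1 dose and 1.27% after 4 doses. The 1 called gene of the 44 was Klhl6, a gene of B lymphocytes named after its value was seen, which rose after 4 doses (log2 change 0.34, adjusted p = 0.0339, limma), a share of 2.27% against 1.91% of the 15614. In mstn-null muscle 18.2% of the 44 fell and 29.5% rose, against 17.3% and 24.8% of the 15614.

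The arrays fell into 2 scales, one per experiment. The median log2 value over the tested genes was between 4.73 and 4.86 on the arrays of experiment 1 and between 6.34 and 6.54 on those of experiment 2, and levels are set side by side only inside one experiment. All 13 defining markers of skeletal muscle, among them Acta1, Ckm and Ttn, lay above the upper quartile of every array. Mstn itself was lower in mstn-null mice, at a mean of 7.25 ± 0.49 (SD, n = 8) against 10.03 ± 0.16 (SD, n = 5) in controls of experiment 2, and at 6.14 ± 0.48 (SD, n = 3) against 7.35 ± 0.50 (SD, n = 3) in experiment 1. The interquartile range of an array's values, a measure of how widely the array spreads dim and bright genes, was narrower on mstn-null arrays of experiment 2 (2.14 to 2.42) than on its control arrays (2.50 to 2.65). In experiment 1 it was 2.39 to 2.44 against 2.47 to 2.74, so the 2 classes did not overlap in either experiment. For mstn-null against control, a fit with this range as a covariate therefore cannot tell the array range from the genotype.

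Control muscle of experiment 2 had Mss51 at log2 values of 9.63, 10.38, 9.95, 10.20 and 9.89 (mean 10.01 ± 0.29 SD, n = 5). After 1 dose of ActRIIB-Fc the values were 6.89, 7.26, 7.62, 7.72 and 6.87 (mean 7.27 ± 0.39 SD, n = 5). After 4 doses they were 7.60, 6.96, 7.36, 7.11 and 7.70 (mean 7.35 ± 0.31 SD, n = 5). Every array of both dosed classes lay below every control, with a gap of 1.91 between the lowest control and the highest 1-dose array and of 1.93 for 4 doses. The dosed classes overlapped each other.

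Experiment 1 gave the same order of the control and dosed classes on its own scale. Its controls had Mss51 at 6.51, 6.18 and 6.67 (mean 6.45 ± 0.25 SD, n = 3). The 1-dose arrays had 4.61, 4.28 and 4.15 (mean 4.34 ± 0.24 SD, n = 3). The 4-dose arrays had 5.07, 4.59 and 4.59 (mean 4.75 ± 0.28 SD, n = 3). Again no dosed array reached a control, with gaps of 1.57 for 1 dose and 1.11 for 4 doses, and the 4-dose arrays lay within or above the range of the 1-dose arrays. Over all genes, 0.391% had every 1-dose array below every control in both experiments, and 0.808% had every 4-dose array below every control. Mss51 was chosen for this contrast, so nothing is read from its place among them. For mstn-null the share was 2.57%, and Mss51 was not among those genes.

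In mstn-null muscle Mss51 lay on both sides of its control values. The 8 mstn-null arrays of experiment 2 had 9.43, 8.90, 9.58, 10.81, 9.55, 8.77, 9.55 and 9.28 (mean 9.48 ± 0.62 SD, n = 8). The highest of these, replicate 4, was above every control, and the other 7 were below every control. In experiment 1 the mstn-null arrays had 6.70, 6.37 and 6.70 (mean 6.59 ± 0.19 SD, n = 3), of which 2 lay just above all 3 controls. The order of the class means was thus control, mstn-null, 4 doses, 1 dose in experiment 2 and mstn-null, control, 4 doses, 1 dose in experiment 1. In experiment 2 no mstn-null array lay inside the control range, with 7 below it and 1 above. In experiment 1 the mstn-null and control ranges overlapped. The ranges of 1 dose and 4 doses overlapped in both experiments, and the lowest mstn-null array was above the highest dosed array, by 1.30 in experiment 1 and by 1.06 in experiment 2.

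**Figure D1:**
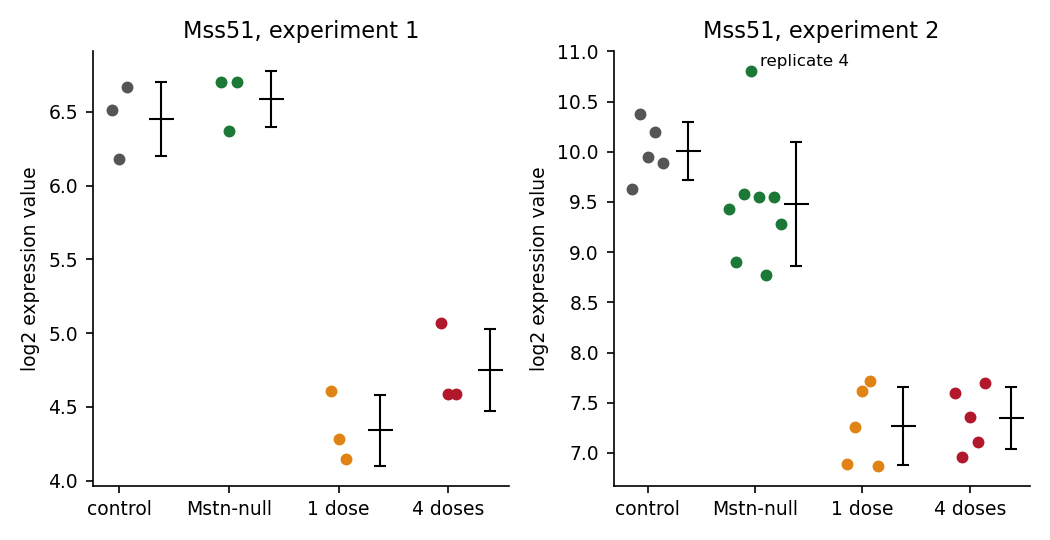
Log2 expression value of Mss51 (y axis, a separate scale for each experiment) by class (x axis) in experiment 1 (left) and experiment 2 (right). Points are arrays, 1 per mouse, and the black bar beside them is the group mean with its SD. No dosed array reaches any control or mstn-null array of its experiment, and mstn-null replicate 4 of experiment 2 lies at 10.81, above all controls.

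Over both experiments, with the experiment as a term in the fit, Mss51 was 5.67-fold lower than control after 1 dose (log2 change -2.50 ± 0.20 SE, 95% interval -2.90 to -2.10) and 4.94-fold lower after 4 doses (-2.31 ± 0.20 SE, -2.71 to -1.91). In whole muscle, fewer cells that express a gene and less of its RNA per cell cannot be told apart. By size of fall Mss51 was first of 19938 genes at either number of doses. Clone numbers, chemosensory receptor genes and small RNA genes were passed over in naming the genes that follow. The genes next in order, named after their values were seen, were well short of Mss51 after 1 dose, with the methyltransferase gene Inmt at -1.44 and the glutathione-degrading enzyme gene Chac1 at -1.40. After 4 doses they were closer, with the slow troponin C gene Tnnc1 at -2.05 and the slow myosin heavy chain gene Myh7 at -2.00. In experiment 1 alone Mss51 was first after 1 dose (-2.11) and at rank 8 by size of fall after 4 doses (-1.71). Against mstn-null muscle Mss51 was lower by a log2 difference of -2.22 ± 0.18 SE after 1 dose and of -2.02 ± 0.18 SE after 4 doses, again the largest falls of all genes over both experiments. These values share the dosed arrays that the choice of the gene rests on and carry no test.

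The mstn-null arrays did not enter the choice, and their comparison with control was tested. Mss51 was not called between mstn-null and control muscle (log2 change -0.29 ± 0.18 SE, 95% interval -0.66 to 0.08, adjusted p = 0.2, limma), a comparison in which 41.8% of all genes were called. The same control arrays entered this test and the choice of the gene. Taken by itself, experiment 2 gave -0.53 (adjusted p = 0.0671) and experiment 1 gave 0.14 (adjusted p = 0.746). An exact permutation of the class labels within each experiment, two-sided, gave p = 0.177 over 25740 arrangements. The result rested on 1 array: without mstn-null replicate 4 of experiment 2 the change was -0.41 and passed (adjusted p = 0.0313), while the other 34 arrays left out in turn did not bring it past the threshold. With the interquartile range of each array as a covariate it was 0.05 (adjusted p = 0.949), in a fit that cannot tell that range from the genotype. After quantile normalization over all 35 arrays the change was -0.06 (adjusted p = 0.809, limma). With each array centred on its median it was -0.38 (adjusted p = 0.137, limma).

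The levels after 4 doses and after 1 dose lay close together. These arrays chose the gene, so their difference is a description with no test. The log2 difference of 4 doses minus 1 dose was 0.20 ± 0.20 SE (95% interval -0.20 to 0.60). The interval holds a level after 4 doses that is slightly lower, or up to 0.60 higher on the log2 scale. In experiment 1 the 4-dose mean was higher by 0.40 and in experiment 2 by 0.08.

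The log2 change of Mss51 against control was more negative in experiment 2 than in experiment 1 in all 3 classes. For the dosed classes this is a description, since these changes chose the gene, and the difference was -0.63 ± 0.39 SE for 1 dose and -0.96 ± 0.39 SE for 4 doses. For mstn-null it was -0.66 ± 0.37 SE and did not pass (adjusted p = 0.289, limma), where 1.68% of all genes did. In experiment 1 Mss51 lay below the array's median on all 3 arrays of 1 dose and on 2 of the 3 arrays of 4 doses, with means of -0.44 and -0.05 relative to that median. In experiment 2 all dosed arrays were above it, by means of 0.82 and 0.91. Whether dim signal limited the size of the change in experiment 1 was not tested. The 3 differences share the controls of each experiment, and the experiments also differ in scale.

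**Figure D2:**
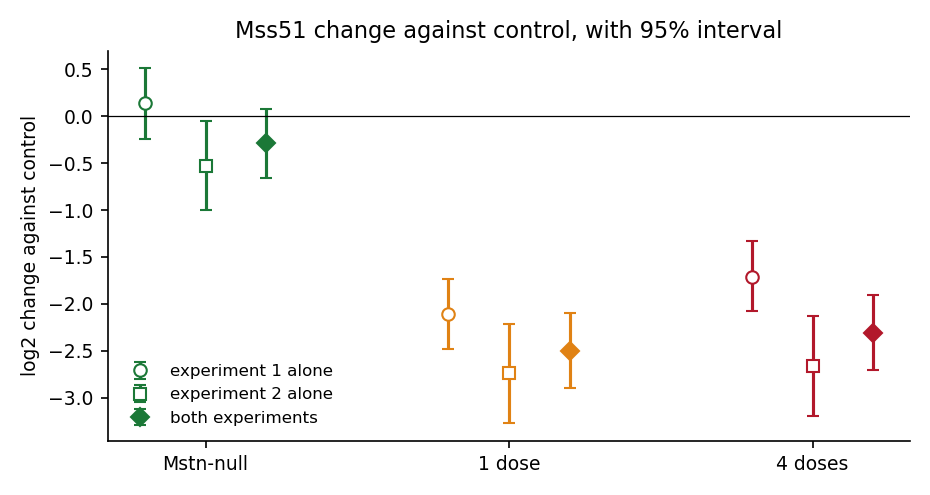
Log2 change of Mss51 against control (y axis) for mstn-null, 1 dose and 4 doses (x axis), from experiment 1 alone (circles), experiment 2 alone (squares) and both together (filled diamonds), with 95% intervals from limma. The mstn-null interval from both experiments spans 0 (-0.66 to 0.08), and the dose interval nearest to 0, that of 4 doses in experiment 1, ends at -1.33.

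Replicate 4 of the mstn-null group of experiment 2 stood apart for Mss51. At 10.81 it was 1.33 above its group mean, and its gap to the next array was 0.605 of the group's whole range. Without it the other 7 arrays had a mean of 9.29 ± 0.33 (SD, n = 7), all between 8.77 and 9.58, a spread like that of the other groups. Its Mstn value of 7.47 lay inside its group's range of 6.29 to 7.84, and its interquartile range of 2.41 was within the 2.14 to 2.42 of the group. Its mean correlation with the other mstn-null arrays of the experiment was 0.982, no lower than that of any of them. By the same gap rule 45 genes, or 0.226% of those measured, stood apart on this array, the fewest of the 8 arrays, on which the number ran up to 506. Among these 45 genes Mss51 had the largest deviation upward. The next were the metallothionein gene Mt1 (0.90) and Pnmt (0.72), the last enzyme of adrenaline synthesis, and the largest downward were the homeobox genes Hoxc10 (-1.82) and Six2 (-0.95). These 4 genes were chosen after their values were seen. The mean of 12 macrophage markers was 6.76 on this array, the lowest of its group, and 5 markers of fibro-adipogenic progenitors were also lowest there (8.66, with the highest at 9.50). The slow fibre list (8.77, in a group range of 7.06 to 9.29) and the fast fibre list (13.32, in 12.87 to 13.35) were inside their ranges. The part of these values in the Mss51 level of this array was not tested.

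Genes whose class pattern was most like that of Mss51 were then sought. Likeness was the Pearson r over the 8 group means, each centred on its experiment, among the 736 genes called against control at either number of doses. These values share the controls and are a description. The 8 closest were Net1, a nucleotide exchange factor for RhoA (r = 0.939), Fam214a (0.928), the kelch gene Klhl38 (0.921), Fbxo32, the ubiquitin ligase of muscle atrophy (0.921), the interleukin-6 receptor gene Il6ra (0.918), the cholesterol exporter gene Abca1 (0.913), Igfn1, an immunoglobulin-like protein of skeletal muscle (0.910), and Chrna10, a nicotinic receptor subunit gene (0.908). Their changes were far smaller than that of Mss51. After 1 dose they ran from -1.18 for Klhl38 and -1.02 for Fbxo32 to -0.39 for Net1 and Chrna10, and after 4 doses from -0.99 for Klhl38 to -0.22 for Chrna10. Neither Mss51 nor any of the 8 was called between mstn-null and control muscle, where 41.8% of all genes were. Among them were Fbxo32 at -0.31 (adjusted p = 0.0593), Abca1 at 0.30 (adjusted p = 0.076), Klhl38 at -0.31 (adjusted p = 0.0765) and Igfn1 at 0.26 (adjusted p = 0.157, all limma). The mstn-null means entered the likeness that chose these genes, so nothing is read from this.

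Igfn1 was the gene among them whose levels came nearest to the Mss51 picture in experiment 1. There its control arrays lay between 5.61 and 6.39, its mstn-null arrays between 5.76 and 6.58, its 1-dose arrays between 4.72 and 5.14 and its 4-dose arrays between 4.55 and 4.96. Dosed arrays thus lay below all others, as for Mss51. In experiment 2, however, its control mean was 6.75 ± 0.23 (SD, n = 5), below the mstn-null mean of 7.16 ± 0.46 (SD, n = 8), whereas Mss51 was higher in controls. Klhl38 separated by dose in experiment 2, with a control mean of 10.15 ± 0.13 (SD, n = 5) and 1-dose arrays between 8.22 and 9.24, and less so in experiment 1, where its 4-dose arrays (7.21 to 7.41) overlapped the controls (7.39 to 7.84). None of the 8 genes passed for variation with Mss51 from mouse to mouse inside a group, where 5.5% of all genes passed. Their within-group r lay between -0.41 for Abca1 and 0.31 for Klhl38 (adjusted p from 0.13 to 0.956, limma). A weaker relation can be missed, since on simulated data this fit found 23% of the genes given a slope of 0.5 SD per SD of Mss51. The simulated noise was independent from gene to gene, with no range shared across an array. The share found on the real arrays may therefore differ. On mstn-null replicate 4 of experiment 2, where Mss51 was highest, 5 of the 8 were above their group's median, a count that replicates 1 and 6 also had.

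**Figure D3:**
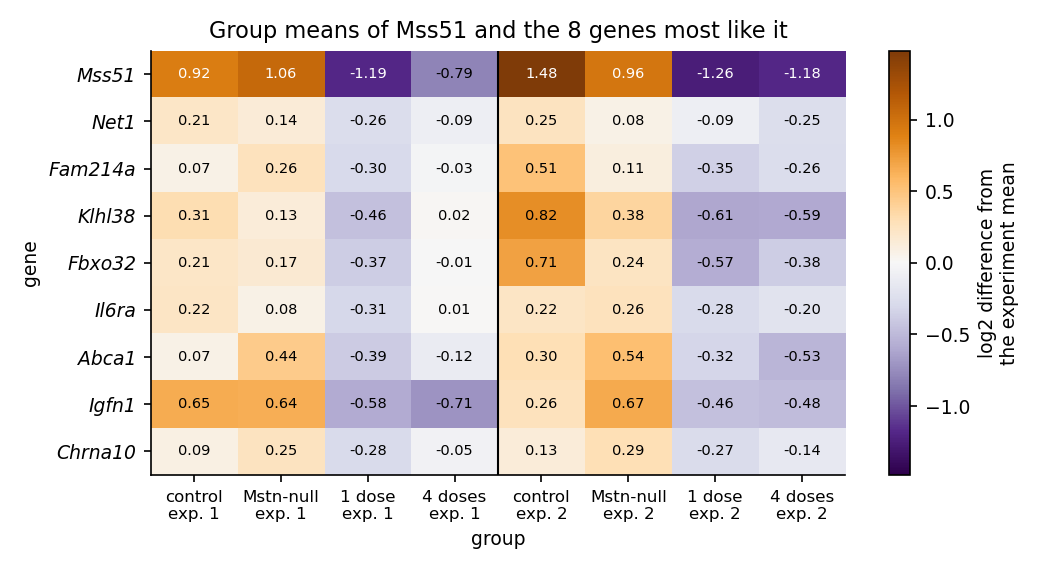
Mean log2 value of each group minus the mean of the 4 group means of its experiment (colour and printed number) for Mss51 and the 8 genes most like it (rows) in the 8 groups (columns, experiment 1 left of the line). Mss51 runs from 1.48 in controls to -1.26 after 1 dose in experiment 2, a wider range than any of the other 8 genes.

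Variation between mice of the same group was taken as a separate question, since the class differences that chose Mss51 do not enter it. Every other gene was fitted on the 8 group means and the Mss51 value of the array. Of 19937 genes 1096 (5.5%) passed, 950 with a positive and 146 with a negative slope. The highest within-group correlations over 35 arrays were those of Bves, a membrane protein of striated muscle (r = 0.75, rho = 0.66), Cyb5d2 (r = 0.75, rho = 0.77), the histidyl-tRNA synthetase gene Hars (r = 0.74, rho = 0.66) and the sialidase gene Neu2 (r = 0.74, rho = 0.70). Tmco3, Pak1ip1, Tfdp1, Dnajc4, Rab22a and Art3 followed, with r between 0.72 and 0.73. The lowest were the ceramide synthase gene Cers6 (r = -0.74, rho = -0.63), Klf16 (-0.71), Snapc4 (-0.71), Slc22a15 (-0.70), Gpr143 (-0.69) and the odorant-binding protein gene Obp2a (-0.68).

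These genes were picked for the size of r on the same arrays. Their permutation p and their r on part of the arrays are therefore a description, and only the adjusted p covers all 19937 genes. For Bves, permuting Mss51 within groups gave p = 1e-05 for r, the smallest that 100000 resamples can give, and 0.00023 for rho (adjusted p of the slope = 0.0137 over 19937 genes, limma). For Cyb5d2 both permutation p were 1e-05, again the smallest possible (adjusted p = 0.0137), and for Cers6 they were 2e-05 and 0.00045 (adjusted p = 0.0148). The arrays farthest from the median were mstn-null replicates 4 and 6 of experiment 2, which deviated by 1.33 and -0.71. Without both, r was 0.58 for Bves, 0.71 for Cyb5d2 and -0.62 for Cers6. In the 12 arrays of experiment 1 and the 23 of experiment 2, r was 0.48 and 0.79 for Bves and 0.58 and 0.80 for Cyb5d2. Cers6 differed in sign, with 0.37 and -0.87.

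The same within-group variation moved with the spread of the whole array. Over 3 such relations (array range, array median and Mstn), Mss51 deviated together with the interquartile range of the array (r = 0.46, permutation p = 0.00837, Benjamini-Hochberg adjusted 0.0251, and rho = 0.53, permutation p = 0.00344, adjusted 0.0103). Without the 2 farthest arrays r was 0.39, and it was 0.31 in experiment 1 and 0.53 in experiment 2. With that range as a covariate 0 of 19937 genes passed (limma, adjusted p from 0.22 to 0.235 for the 16 named genes), while 2192 had an unadjusted p under 0.05. Values were then 0.26 for the slope of Bves and 0.39 for that of Cyb5d2, against 0.34 and 0.43 before. The count also depended on single arrays: it was 0 without mstn-null replicate 6 of experiment 2, where 4100 genes had an unadjusted p under 0.05. It was 477 without mstn-null replicate 4, 692 without mstn-null replicate 2, 687 without 1-dose replicate 3 of experiment 2 and 1688 without 4-dose replicate 2 of experiment 1. Mstn varied with Mss51 by r = 0.38 (permutation p = 0.0547, adjusted 0.0744) and rho = 0.44 (p = 0.0128, adjusted 0.0192), and its slope of 0.40 did not pass over all genes (adjusted p = 0.165, limma). With the array range as a covariate that slope was 0.22 (adjusted p = 0.717, limma). For the array median r was -0.34 (p = 0.0744, adjusted 0.0744) and rho -0.34 (p = 0.0775, adjusted 0.0775), and without the 2 farthest arrays r was -0.20. For Mstn it was 0.38 without them.

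**Figure D4:**
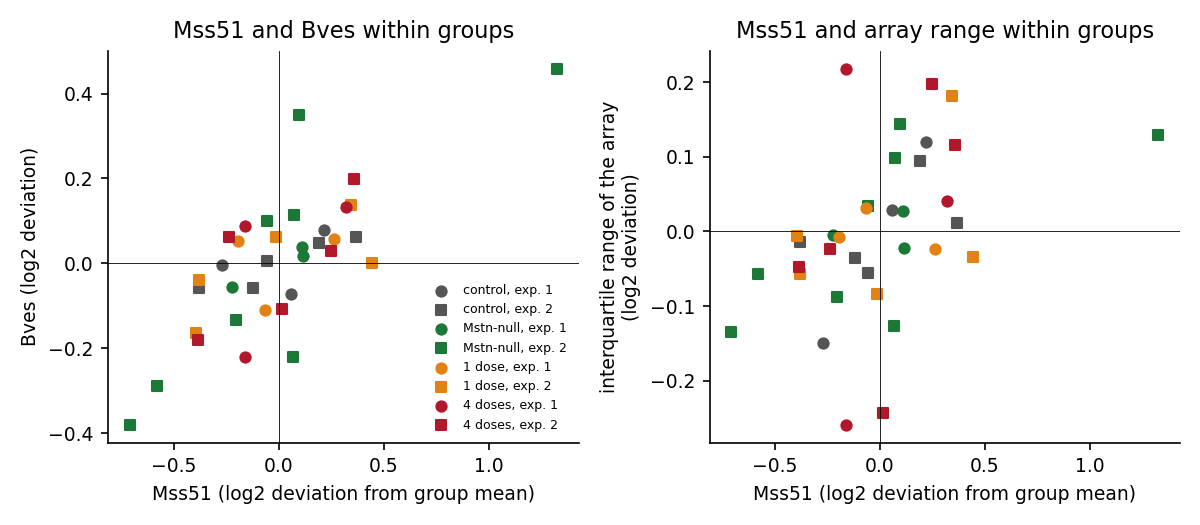
Deviation of each of the 35 arrays from its group mean for Mss51 (x axes, log2) against that of Bves (left, log2) and of the array's interquartile range (right, log2). Circles are experiment 1, squares experiment 2, and colours mark the class. Both rise with Mss51 (r = 0.75 and 0.46), and the point at the far right is mstn-null replicate 4 of experiment 2.

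The genes beside Mss51 on chromosome 14 were taken next. Of its 10 nearest measured protein-coding genes on each side none was called after 1 dose or 4 doses, where 1.11% and 3.14% of all genes were called. At an unadjusted p under 0.05 there were 3 of 20 after 1 dose and 2 after 4 doses (limma). The shares of all genes above are of adjusted calls and cannot be set against these unadjusted counts. Anxa7, an annexin gene next to the end of Mss51, had log2 changes of -0.22 (adjusted p = 0.139) and -0.02 (adjusted p = 0.943). Ppp3cb, the calcineurin A beta gene on the side of the Mss51 start, had -0.18 at both numbers of doses (adjusted p = 0.647 and 0.61). Usp54 had -0.45 (adjusted p = 0.269) and -0.22 (adjusted p = 0.608).

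In mstn-null muscle, where Mss51 itself was not called, 6 of the 20 neighbours fell and 2 rose, against 16.4% and 25.4% of all genes. The falls were those of Chchd1, a mitochondrial ribosome subunit gene (-1.04 ± 0.19 SE, adjusted p = 0.000145), Nudt13 (-0.62 ± 0.10 SE, adjusted p = 3.63e-05), Dnajc9 (-0.47 ± 0.09 SE, adjusted p = 0.000298), Fam149b, Anxa7 and Ppp3cb. Anxa7 was at -0.19 (adjusted p = 0.0225) and Ppp3cb at -0.45 (adjusted p = 0.00836). Kcnk5 (0.33, adjusted p = 0.0017) and Synpo2l (0.35, adjusted p = 0.00901) rose. With the array range as a covariate 0 fell and 0 rose. Quantile normalization left 4 lower and 4 higher.

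**Figure D5:**
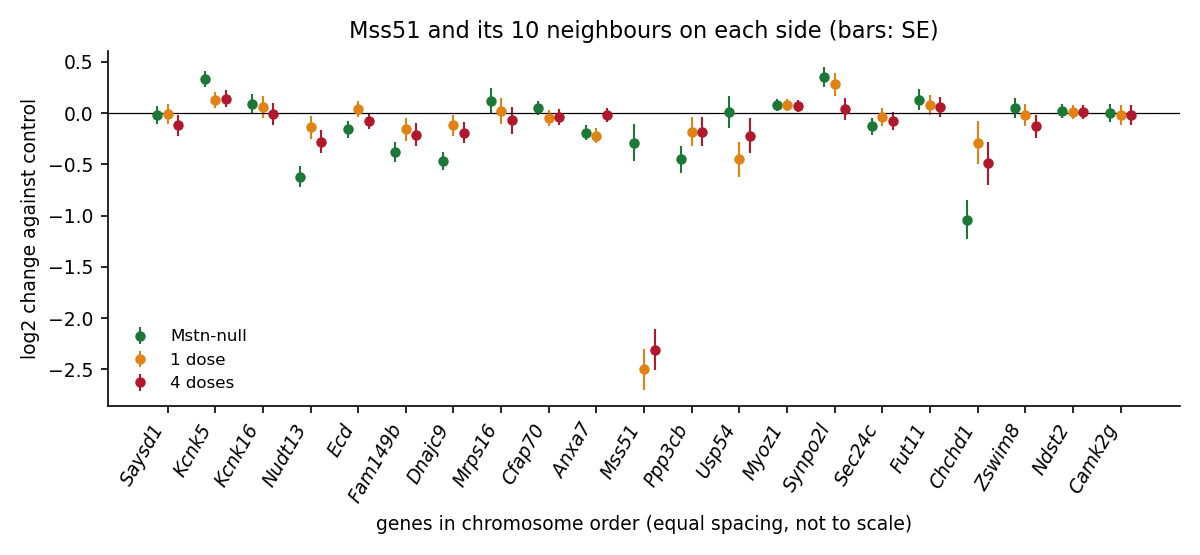
Log2 change against control (y axis, bars are SE from limma) of Mss51 and its 10 nearest measured protein-coding genes on each side, in chromosome order (x axis, equal spacing), for mstn-null, 1 dose and 4 doses. The dose values of Mss51, -2.50 and -2.31, lie far below those of all 20 neighbours, the lowest of which is Chchd1 in mstn-null muscle at -1.04.

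Genes of complex IV, the enzyme that yeast Mss51 serves, were set beside it. Of 22 measured assembly factors 0 were called after 1 dose or 4 doses (0 and 2 at an unadjusted p under 0.05, limma), with medians of -0.06 and -0.09 against 0.02 for all genes in both comparisons. Of 13 subunit genes none was called either (0 and 3 unadjusted), at medians of -0.12 and -0.22. In mstn-null muscle, where 16.4% of all genes fell and 25.4% rose, 18 assembly factors and 10 subunit genes fell and none rose, among them Slirp (-1.20, adjusted p = 2.8e-05) and Lrpprc (-0.71, adjusted p = 1.25e-05), which form a complex that holds mitochondrial mRNA, and the subunit gene Cox6c (-1.90, adjusted p = 2.33e-06). With the array range as a covariate, which cannot be told apart from the genotype here, 1 assembly factor and 5 subunit genes were lower. Within groups, 5 of the 22 and 4 of the 13 had a positive slope on Mss51, where 4.77% of all genes did and 0.732% had a negative one, and none did with the array range as a covariate.

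Of 20 other genes with a MYND finger, 1 rose after 1 dose, Smyd5 (0.34, adjusted p = 0.028), where 0.542% of all genes rose and 0.572% fell. After 4 doses, where 1.91% rose and 1.23% fell, 1 rose, the muscle methyltransferase gene Smyd1 (0.35, adjusted p = 0.0465). None fell at either. Both calls were lost with each array centred on its median, and that of Smyd5 after quantile normalization too. In mstn-null muscle 5 rose and 2 fell, against 25.4% and 16.4% of all genes, among them the oxygen sensor gene Egln1 (-0.68, adjusted p = 0.000242), but with the array range as a covariate none passed in either direction, and with arrays centred 6 fell and 0 rose.

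The pathway that the decoy blocks was read by role. Among 8 ligand genes none was called after 1 dose (3 unadjusted), and 2 rose after 4 doses, Gdf11 (0.59, adjusted p = 7.1e-05), whose product is closest to myostatin, and Tgfb1 (0.33, adjusted p = 0.0357), where 1.91% of all genes rose. With arrays centred or after quantile normalization 1 rose, and with the array range as a covariate 3 rose after 4 doses and 1 after 1 dose. Among 8 receptor genes the type I activin receptor gene Acvr1b fell after 1 dose (-0.61, adjusted p = 0.0081) and did not pass after 4 doses (-0.37, adjusted p = 0.127) or after quantile normalization. It was the 1 call of the 8 after 1 dose, where 0.572% of all genes fell. None of 5 antagonist genes was called at either number of doses (2 and 1 unadjusted), with Fst at 0.22 after 1 dose (adjusted p = 0.0928). Of 13 Smad and target genes, Pmepa1, a feedback inhibitor of Smad signalling, fell after 1 dose (-0.52, adjusted p = 0.00236) and 4 doses (-0.44, adjusted p = 0.00705), and no other was called. The shares of all genes that fell were 0.572% after 1 dose and 1.23% after 4 doses. In mstn-null muscle 4 ligand genes, 3 receptor genes, 2 antagonist genes and 1 Smad or target gene rose, while Mstn and Acvr1b fell (-0.34, adjusted p = 0.0265). Of the 34 genes of these 4 sets 29.4% thus rose, near the 25.4% of all genes, and 2 fell, where 16.4% of all genes did. With the array range as a covariate none of these rises and no receptor gene passed. With arrays centred 2, 0, 1 and 0 rose in these 4 sets, and after quantile normalization 2, 5, 1 and 4 did.

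Genes of atrophy, FoxO factors and autophagy fell in 3 of 20 cases after 1 dose (Fbxo32, Trim63 and Foxo1) and in 5 after 4 doses, with medians of -0.34 and -0.39. Of all genes 0.572% fell after 1 dose and 1.23% after 4 doses. Trim63, the other ubiquitin ligase of muscle atrophy, was at -0.93 after 1 dose (adjusted p = 0.000609) and at -0.87 after 4 doses (adjusted p = 0.000708). In mstn-null muscle 12 fell, against 16.4% of all genes, and 2 with the array range as a covariate. After quantile normalization 7 fell and 2 rose there, and with arrays centred 14 fell and 0 rose. Of 14 fast fibre genes, the fibres in which Mss51 is known to be highest, none was called after 1 dose (1 unadjusted, median 0.05), and 3 rose after 4 doses (median 0.07), against 1.91% of all genes, Myl1 (0.34, adjusted p = 0.00293), Mylpf (0.28, adjusted p = 0.00536) and Mybpc2 (0.20). With arrays centred 2 rose, and after quantile normalization 1 did. In mstn-null muscle 3 fell, Myh2 (-1.30), Myh1 (-0.42) and Tnnc2 (-0.34), and 1 rose, against 16.4% and 25.4% of all genes. With the array range as a covariate none was called.

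Slow fibre transcripts and markers of other cells changed in some of the same comparisons. Of 14 slow fibre genes none was called after 1 dose (6 unadjusted, median -0.75), 9 fell after 4 doses (median -1.41) and 13 in mstn-null muscle (median -2.01), against 1.23% and 16.4% of all genes. With the array range as a covariate 3 fell after 4 doses and 3 in mstn-null muscle. The counts were 8 and 13 with arrays centred, and 7 and 13 after quantile normalization. Of 12 macrophage markers 7 rose after 4 doses, against 1.91% of all genes, 6 rose in mstn-null muscle, against 25.4%, and none was called after 1 dose (7 unadjusted). These counts were 8, 2 and 1 with the array range as a covariate. Their mean was between 6.45 and 6.79 in controls, 6.72 and 7.42 after 1 dose, and 7.24 and 7.51 after 4 doses in experiment 2. In experiment 1 these ranges overlapped, at 4.59 to 5.30 in controls, 4.78 to 5.23 after 1 dose and 5.03 to 5.33 after 4 doses. None of the markers of adipocytes (7), endothelium (7), tendon (6), fibro-adipogenic progenitors (5), Schwann cells (3) and erythroid cells (1) was called at either number of doses, with at most 1 of a list after 1 dose and 3 after 4 doses at an unadjusted p under 0.05. Adding the array range as a covariate, 1 endothelial and 1 fibro-adipogenic marker rose after 4 doses. In mstn-null muscle 4 endothelial markers, 2 of tendon, 1 of fibro-adipogenic progenitors and the adipocyte marker Fabp4 (-1.51) fell, against 16.4% of all genes. The count with the array range as a covariate was 1 for endothelium and 0 for the other 3 lists. Of 4 smooth muscle markers Myh11 fell after 4 doses (-0.52, adjusted p = 0.00272). Of the 13 skeletal muscle markers Tcap (-0.73, adjusted p = 0.00588) and Mb (-0.94, adjusted p = 0.0217) fell after 4 doses, and none was called after 1 dose (2 unadjusted). In mstn-null muscle 5 fell and 3 rose, against 16.4% and 25.4% of all genes, and with the array range as a covariate 2 fell and 0 rose. Their part in the Mss51 values was not tested.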

How the data were processed

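The authors deposited log2 expression values from Affymetrix whole-transcript arrays. RMA, limma 3.4.4 and R 2.11.1 are named in the submitters' processing notes, with no role stated. The values' range is that of a base-2 log, and the sources used here do not say if the experiments shared one normalization. Total RNA came from snap-frozen quadriceps, extracted with TRIzol, per the labels' protocols. The labels call the mice of a group biological replicates. No depth applies to arrays, and their number limits the precision.

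Of 35556 rows, 21789 had exactly 1 symbol, 1621 several and 12146 none. Rows with 1 symbol were used, the one with the highest mean for 999 genes with several, which left 19938 genes with no filter on dim genes. Of these rows 21698 matched RefSeq genes (GRCm38.p6) by gene number. Comparisons used limma 3.58.1 in R 4.3.3 (lmFit, eBayes, two-sided) on the 35 arrays, with terms for class and for experiment. A fit of 8 group means tested differences between experiments and the slope of each gene on Mss51. Benjamini-Hochberg adjusted p under 0.05 over all genes was called. Changes between dosed arrays and their differences between experiments, planned as tests, are given as descriptions, since these arrays chose the gene. Lists are described by counts and medians. Counts of list members and neighbours at an unadjusted p under 0.05 have no share of all genes beside them. Nothing is read from these unadjusted counts. The fits were tested on simulated data.

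Named genes were Mss51, Mstn, the 8 most alike in class pattern, the 10 highest and 6 lowest within-group correlations, and up to 3 members of each list and of the neighbours with the smallest p, apart from exceptions stated. Clone numbers, chemosensory receptor genes and small RNA genes were left unnamed. Mss51 and the lists were chosen with earlier results of these data known. Array scaling, the array range, weights, a replicate block, filters, each experiment alone and each array left out were tried as alternatives. The protein sequence was not used here.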

Additional observations from a re-analysis of the deposited data

Results flagged for a closer look

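Mss51 in mstn-null replicate 4 of experiment 2 was set apart from its group, at a log2 value of 10.81, with a gap to the next array of 0.605 of the group's range, above the critical value of 0.526 for 8 arrays. It was the 1 case among 12 checks, of Mss51, Mstn and the array range in the 4 groups of experiment 2, and chance sets apart about 1 group in 20. No other array value of these 3 measures passed.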

How the results depend on the processing

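The dose values of Mss51 kept their direction under all alternatives run, from -2.74 to -2.11 after 1 dose and from -2.66 to -1.71 after 4 doses, where -1.71 is from experiment 1 alone. With 1 array left out they ran from -2.60 to -2.42 and from -2.40 to -2.22. The mstn-null change turned to 0.05 with the array range as a covariate and to 0.14 in experiment 1 alone, and ran from -0.41 to -0.20 with 1 array left out. After quantile normalization it was -0.06, and with arrays centred -0.38. The difference of 4 doses minus 1 dose was between 0.08 and 0.40. The 4-dose difference between experiments was -1.23 with limma's gene-by-gene array weights. The default weights did not converge, with a largest weight of 61.66, and were not used. The within-group count of 1096 was 2109 with arrays centred, 182 with array weights, 609 in experiment 2 alone and 701 on ranks of the deviations. It was 0 after quantile normalization (2461 at an unadjusted p under 0.05), 0 with the array range as a covariate (2192), 0 with that covariate and mstn-null array 4 left out, chosen after seeing the data (1900), 0 in experiment 1 alone (785) and between 0 and 1688 with 1 array left out. Cers6 reversed in experiment 1 alone (slope 0.16). Neighbours that rose in mstn-null muscle numbered 1 with arrays centred, 4 after quantile normalization and 0 with the array range, where 0 fell. The cause of these shifts was not tested.

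Replicate numbers were not taken to pair the arrays. Correlations of same-numbered deviations ran from -0.60 to 0.34 over the 4 class pairs compared in each experiment, and from -0.16 to 0.17 between mstn-null and control. In 1 of these 8 cases, 1 dose and control in experiment 1, all lay between 0.10 and 0.34, with a mean of 0.24 against -0.11 for other numbers. With the replicate block the mstn-null change was -0.17 (adjusted p = 0.492), 4 doses minus 1 dose was 0.20, and the within-group count was 0 (2930 unadjusted).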
